A study of Homo sapiens with 4 samples.

Results

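The genes described here are 36 genes of the DNA damage response and of DNA repair, and the measurement is H3K4me3, trimethylation of lysine 4 on histone H3, at their transcription start sites (TSS). Members were listed by name, and for each one all peaks of the deposited table that carried its name and lay 1 kb or less from the TSS were summed. Of the 36 genes, 34 had such a peak, with 58 peaks between them, of 16403 genes and 110018 peaks in the whole table. ATRIP and XRCC3 had none. MDC1, the adaptor that docks on phosphorylated H2AX, had 4.26 and 2.21 tags in C48-treated libraries, against 2.74 and 2.55 in DMSO libraries, under the minimum mean of 5 used for testing. The remaining 33 genes were tested.

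The study treated HCC1428, an established cell line from a luminal breast cancer, with C48, a small molecule that inhibits the KDM5 family of H3K4 demethylases. One group received 2.5 µM C48 and was collected on day 5, and the other received the vehicle DMSO over the same time. There were 2 libraries per group, made by CUT&Tag, in which an antibody directs the transposase Tn5 to the mark so that the DNA beside it is cut and sequenced. The labels call them biological replicates without saying whether they were separate cultures. The p-values thus cover the spread between these libraries alone, which may be technical. In the main fit of genes that spread is largely pooled over genes of similar level. The standard error (SE) given for a gene therefore says little about its own replicates.

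KDM5 enzymes remove methyl groups from H3K4, a mark concentrated around the start sites of active genes and of genes ready for transcription. The DNA damage response starts with sensors that find broken DNA, passes through the kinases ATM and ATR to checkpoint effectors, and ends in repair pathways suited to each kind of lesion. Breaks in both strands are rejoined by end joining or copied from the sister chromatid by homologous recombination, crosslinks are handled by the Fanconi anemia pathway, and damaged bases, bulky adducts and mispaired bases go to base excision, nucleotide excision and mismatch repair. In breast cancer cells these genes are of particular interest because several of them are tumor suppressors.

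Values are tags per 10 M aligned tags, scaled further between libraries by the trimmed mean of M values (TMM) over all peaks. Depth was 58.4 and 72.7 M aligned tags in C48 and 88.4 and 64.6 M in DMSO, with 64.0% to 66.3% of tags in peaks. Across genes the log-scale correlation was 0.997 within each group and 0.963 to 0.965 between groups, a description over genes that share libraries. In the check of the cell type, 9 of 10 luminal markers were tested, with summed levels of 3810 and 3980 in C48 and 6450 and 6080 in DMSO. SPDEF and TFF1 were called higher in C48 on this scale, and the rest of those tested were called lower. None of 5 blood markers had a peak near its TSS, none of 5 basal markers reached the minimum, with sums up to 4.17, and 1 of 5 stromal and endothelial markers was tested, at 80.6 and 91.0 in C48 and 41.8 and 40.6 in DMSO. As the cells were profiled in bulk, fewer marked cells and less mark per cell cannot be told apart.

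The choice of scaling sets the zero line for every gene. With TMM the median log2 fold change (C48 over DMSO) of all 14648 tested genes was -0.37, and with the values as deposited per 10 M tags it was -0.03, so each member is given on both scales where its direction depends on it. TMM multiplied the deposited values by 0.887 and 0.892 in C48 and by 1.15 and 1.10 in DMSO, which lowers every log2 fold change by about 0.34. Scaling to the fly spike-in, the study's own choice, works in the other direction, since its C48 libraries held fewer fly tags and their values are raised by it. The fly counts were not used here, so lower and higher below are relative to the other peaks of the same libraries, and neither scale shows an absolute loss or gain of the mark.

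Promoter sequences are shown for 6 members on which the results turn. PARP2 had the lowest log2 fold change of all members, H2AFX and ERCC4 encode proteins that the study itself followed, RAD50 had separate peaks that moved apart, and at CHEK2 and FANCD2 the peak over the start site carries the name of a neighboring gene. Each window runs from 250 bases before to 50 bases after the RefSeq start (GRCh38.p14, the same chromosomes as the hg38 coordinates of the peaks), and 32 of the 36 members matched an entry. Written 5′ to 3′, capitals mark the CCAAT box, the GC box GGGCGG, the ETS core CGGAAG and the TATA box TATAAA on either strand.
PARP2, chr14:20343385-20343684, plus strand: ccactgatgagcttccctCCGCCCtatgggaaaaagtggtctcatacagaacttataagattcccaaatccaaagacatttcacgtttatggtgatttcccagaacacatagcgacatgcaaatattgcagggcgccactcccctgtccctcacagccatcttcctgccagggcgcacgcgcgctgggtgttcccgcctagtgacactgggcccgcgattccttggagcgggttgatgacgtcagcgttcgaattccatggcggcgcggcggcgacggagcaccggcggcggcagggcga
H2AFX, chr11:119095416-119095715, minus strand: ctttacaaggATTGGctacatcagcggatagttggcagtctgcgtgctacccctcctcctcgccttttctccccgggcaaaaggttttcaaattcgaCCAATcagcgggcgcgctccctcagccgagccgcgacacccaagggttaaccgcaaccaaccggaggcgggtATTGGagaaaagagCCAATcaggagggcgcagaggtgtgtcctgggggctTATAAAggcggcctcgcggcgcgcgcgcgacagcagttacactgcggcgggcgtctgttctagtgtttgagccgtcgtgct
ERCC4, chr16:13919904-13920203, plus strand: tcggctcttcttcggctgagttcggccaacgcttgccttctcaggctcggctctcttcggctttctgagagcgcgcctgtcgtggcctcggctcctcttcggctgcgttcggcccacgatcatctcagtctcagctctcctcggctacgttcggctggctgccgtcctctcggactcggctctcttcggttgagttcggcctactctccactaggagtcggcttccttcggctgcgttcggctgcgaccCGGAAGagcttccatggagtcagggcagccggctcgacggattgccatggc
RAD50, chr5:132556727-132557026, plus strand: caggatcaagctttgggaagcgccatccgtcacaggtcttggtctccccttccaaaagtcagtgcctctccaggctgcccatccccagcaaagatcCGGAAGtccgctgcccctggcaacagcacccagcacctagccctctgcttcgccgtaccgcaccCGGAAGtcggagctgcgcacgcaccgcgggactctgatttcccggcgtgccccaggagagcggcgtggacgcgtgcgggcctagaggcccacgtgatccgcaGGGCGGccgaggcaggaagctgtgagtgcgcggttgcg
CHEK2, chr22:28741771-28742070, minus strand: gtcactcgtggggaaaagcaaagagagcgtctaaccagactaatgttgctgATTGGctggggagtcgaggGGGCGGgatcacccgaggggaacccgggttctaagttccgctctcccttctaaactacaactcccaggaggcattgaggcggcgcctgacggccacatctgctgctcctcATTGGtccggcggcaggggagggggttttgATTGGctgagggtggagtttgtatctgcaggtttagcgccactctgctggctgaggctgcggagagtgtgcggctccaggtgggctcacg
FANCD2, chr3:10026187-10026486, plus strand: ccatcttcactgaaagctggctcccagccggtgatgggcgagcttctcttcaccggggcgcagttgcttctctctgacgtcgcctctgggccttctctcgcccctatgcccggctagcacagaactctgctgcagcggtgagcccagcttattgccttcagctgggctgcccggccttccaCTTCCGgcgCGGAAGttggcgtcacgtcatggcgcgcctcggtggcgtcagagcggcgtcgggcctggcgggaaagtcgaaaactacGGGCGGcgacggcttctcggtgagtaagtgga

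The H2AFX window held 4 copies of CCAAT and was the only member window with TATAAA. That match was found in 12.0% of all 27305 promoters and in 5.32% of promoters of tested genes. FANCD2 and RAD50 each held 2 copies of CGGAAG. Over the 32 members, CCAAT was found in 15 windows (46.9%, against 35.7% of all promoters), GGGCGG in 23 (71.9%, against 44.6%) and CGGAAG in 13 (40.6%, against 19.9%). Among promoters of tested genes the shares were 36.1%, 70.5% and 30.7%, and no matches overlapped in the 6 windows shown. GC content of the member windows had a median of 64.5% and reached 78.0%, against a median of 65.7% for tested genes. A divergent start site within 1 kb was found for 14 of the 32 members (43.8%), against 21.7% of promoters of tested genes, a feature that bears on which gene a peak is named for.

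At the level of the list, most members had less H3K4me3 within 1 kb of the TSS in C48 than in DMSO on the TMM scale, which is relative to the bulk of peaks. Of the 33 tested members, limma called 28 lower and 4 higher at an adjusted p of 0.05, and ERCC1 was not called. Across all tested genes 63.3% were called lower and 17.9% higher. C48 and DMSO libraries did not overlap at 32 of the 33 members, but neither did they at 13182 of all 14648 tested genes. A lack of overlap, where given below, is thus common to most genes. The members' median was -0.42 (quartiles -0.73 and -0.23), close to the -0.37 of all genes, and 14 of 33 lay above that median. As deposited, 15 members were called lower and 9 higher, against 41.2% and 35.8% of all genes, with a members' median of -0.08 against -0.03. Under TMM, the deposited scale and DESeq2 size factors alike, 15 members were called lower, namely ATM, BARD1, ERCC4, FANCA, FANCM, GADD45A, H2AFX, MSH6, NBN, PARP1, PARP2, TP53BP1, XPA, XPC and XRCC1, and CDKN1A and FANCD2 were called higher under all 3. Against the deposited log2 values, TMM shifts all genes by about -0.34 and DESeq2 size factors by about -0.49. A lower call as deposited is thus nearly bound to stay lower, and a higher call with DESeq2 to stay higher. The agreement is therefore no separate support, and spike-in scaling, which shifts the other way, was not among the 3.

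The share of lower calls moved with the strength of the promoter peak, measured as tags per kb of peak and divided into 4 classes with equal numbers of tested genes. Of the members in the strongest class 9 of 9 were lower, against 93.1% of all its genes. In the following classes 12 of 13 members were lower against 81.8%, then 6 of 8 against 59.4%, and in the weakest class 1 of 3 against 18.8%. The 3 members of the weakest class were BRCA2, CHEK2 and FANCD2.

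**Figure D1:**
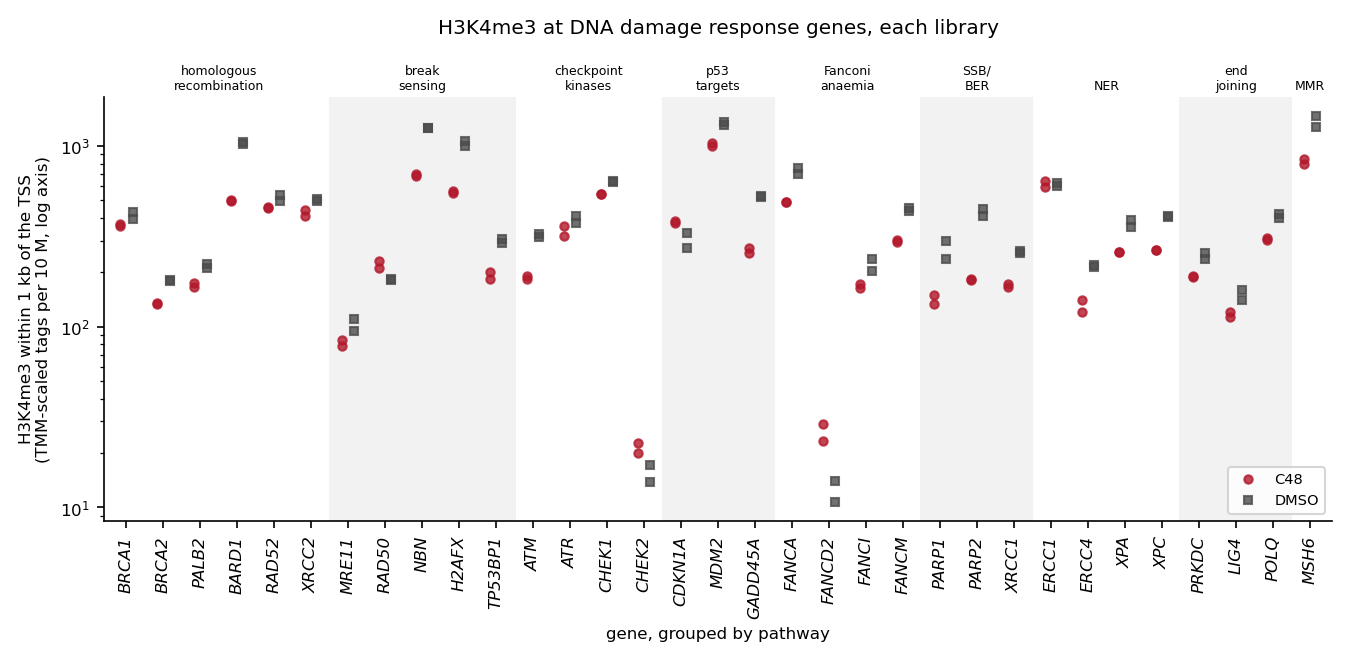
H3K4me3 within 1 kb of the TSS as TMM-scaled tags per 10 M on a logarithmic y axis for the 33 tested members (x axis, grouped by pathway; SSB/BER, single-strand break and base excision repair; NER, nucleotide excision repair; MMR, mismatch repair) in C48 and DMSO libraries, with each point a library. C48 points lie below DMSO points at 28 genes, above them at RAD50, CHEK2, CDKN1A and FANCD2, and overlap with them at ERCC1. Among all 14648 tested genes the groups did not overlap at 13182.

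The first group holds the sensors and early mediators of breaks, in which H2AFX, NBN and TP53BP1 were lower in C48 and RAD50 was higher. H2AFX encodes H2AX, the histone variant phosphorylated around breaks. Its level was 564 and 549 tags in C48, against 1064 and 997 in DMSO, and the groups did not overlap. The log2 fold change was -0.89 (SE 0.06, limma adjusted p = 1.11e-44) with TMM and -0.55 as deposited, at percentile 6.7 of all tested genes. NBN and MRE11 form a complex with RAD50 that tethers and trims DNA ends. NBN had 682 and 700 tags in C48, against 1256 and 1254 in DMSO (log2 fold change -0.86, adjusted p = 1.53e-43, and -0.52 as deposited).

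RAD50, the third subunit of that complex, moved the other way from its partners on the TMM scale. It had 210 and 230 tags in C48, against 181 and 183 in DMSO (log2 fold change 0.27, SE 0.08, limma adjusted p = 0.00148, and 0.61 as deposited). The sum joins separate peaks that behaved differently. The peak over the start site, which holds 179 bases of the window printed above, had 120 and 132 tags in C48 and 125 and 130 in DMSO (-0.02 and not called with TMM, but 0.32 as deposited). A second peak centered 626 bases downstream had 90.8 and 98.2 tags in C48, against 55.9 and 53.2 in DMSO (0.78 with TMM, called higher, and 1.115 as deposited). The RAD50 call was lost with DESeq2 size factors (0.12, adjusted p = 0.138), with the DESeq2 Wald test (0.12, adjusted p = 0.206) and without C48 replicate 2 (0.21, adjusted p = 0.115).

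MRE11, the nuclease of the complex, had 78.1 and 84.8 tags in C48 and 111 and 94.7 in DMSO (-0.33, limma adjusted p = 0.00334), but 0.01 as deposited, and its call was lost without C48 replicate 1 (-0.27, adjusted p = 0.0911) or DMSO replicate 1 (-0.22, adjusted p = 0.0855). Its named peak lies just downstream of the start. The peak over the start itself is named for the divergent gene ANKRD49, whose start is 140 bases away, and had 220 and 214 tags in C48, against 339 and 345 in DMSO. TP53BP1 encodes 53BP1, which shields ends from resection. It has a pair of start sites, and the peak at the upstream one, chr15:43510307-43510970, had 118 and 126 tags in C48, against 161 and 165 in DMSO, while the peak at the downstream start had 34.8 and 49.5 in C48, against 92.3 and 80.6 in DMSO. Both were lower, by log2 fold changes of -0.42 and -1.04 with TMM and -0.08 and -0.70 as deposited. The sum over the gene gave -0.63 (adjusted p = 4.64e-15).

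Among checkpoint kinases, ATM was lower in C48 while ATR, CHEK1 and CHEK2 depended on the scale or on the peak. ATM, the kinase activated by double-strand breaks, had 183 and 191 tags in C48, against 328 and 312 in DMSO, with no overlap (log2 fold change -0.77, SE 0.08, limma adjusted p = 1.85e-22, and -0.44 as deposited). ATR, which responds to single-stranded DNA, was called lower with TMM (-0.21, adjusted p = 0.00404) and higher as deposited (0.13, adjusted p = 0.0328), and its TMM call was lost without C48 replicate 2 (-0.12, adjusted p = 0.296). CHEK1, the effector kinase of ATR, behaved alike, at -0.23 with TMM and 0.11 as deposited, with both called.

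CHEK2, the effector kinase of ATM, was called higher from its named peak, which is weak and lies 424 bases downstream of the start. That peak had 22.6 and 20.0 tags in C48, against 13.8 and 17.2 in DMSO (log2 fold change 0.44, SE 0.20, limma adjusted p = 0.0363), and HOMER, the authors' peak caller, had called it in none of the 4 libraries. The peak that covers the CHEK2 start, and all 300 bases of the printed window, is named for HSCB, a divergent gene whose start is 219 bases away. It had 137 and 134 tags in C48, against 208 and 216 in DMSO (-0.64, SE 0.09, adjusted p = 6.93e-12, and -0.30 as deposited), the opposite direction. The call from the named peak was also lost with DESeq2 size factors (0.30, adjusted p = 0.155), with the DESeq2 Wald test (0.31, adjusted p = 0.29) and without C48 replicate 1 (0.36, adjusted p = 0.242), C48 replicate 2 (0.53, adjusted p = 0.0732) or DMSO replicate 1 (0.29, adjusted p = 0.211). ATRIP, the partner of ATR, had no peak of its own name, and the peak over its start, named for the readthrough gene ATRIP-TREX1, had 233 and 238 tags in C48 and 271 and 260 in DMSO (-0.17, adjusted p = 0.0379, but 0.17 as deposited).

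The 3 p53 target genes of the list split, with CDKN1A alone higher with TMM. Of 17 other p53 targets tested, 13 were lower and 0 higher with TMM, and 7 lower and 4 higher as deposited. CDKN1A encodes p21, the inhibitor of cyclin-dependent kinases that halts the cell cycle after damage. It had 376 and 386 tags in C48, against 331 and 272 in DMSO, with no overlap (log2 fold change 0.34, SE 0.07, limma adjusted p = 2.7e-06, and 0.68 as deposited). Without DMSO replicate 2, the lower of the DMSO pair, the value was 0.20 (adjusted p = 0.00418). The peak lies downstream of the RefSeq start, which was the only one of 32 member starts outside any peak. GADD45A, which encodes a growth arrest protein induced by damage, went the other way, with 256 and 274 tags in C48, against 526 and 521 in DMSO (-0.98, SE 0.07, adjusted p = 2.01e-43, and -0.64 as deposited). MDM2, the ubiquitin ligase that degrades p53, was lower with TMM (-0.40, adjusted p = 1.17e-10) but not called as deposited (-0.06, adjusted p = 0.104).

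In homologous recombination BARD1 stood apart from the other members. BARD1 is the partner with which BRCA1 forms a ubiquitin ligase. It had 494 and 501 tags in C48, against 1055 and 1025 in DMSO, with no overlap and the second lowest log2 fold change of the list (-1.06, SE 0.06, limma adjusted p = 2.52e-62, and -0.72 as deposited). The fall was steepest in the peak at the start site, at 296 and 301 tags in C48, against 735 and 747 in DMSO (-1.31). BRCA1, by contrast, had 361 and 372 tags in C48 and 430 and 397 in DMSO (-0.17, adjusted p = 0.0158) with TMM, but was called higher as deposited (0.17, adjusted p = 0.00309), and its TMM call was lost when C48 replicate 1, C48 replicate 2 or DMSO replicate 1 was left out (adjusted p = 0.195, 0.0922 and 0.0999). The table's BRCA1 peak, chr17:43124465-43126335, lies at another start site than the RefSeq entry used for the promoter windows, and the peak over that entry's start, named for LOC101929767, had 283 and 292 tags in C48, against 394 and 359 in DMSO (-0.39 with TMM and -0.05 as deposited).

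BRCA2, which loads the recombinase on resected DNA, and PALB2, which links BRCA1 to BRCA2, were at -0.42 and -0.35 with TMM and were not called as deposited (-0.09 and -0.02). For PALB2 the peak over the start is named for the divergent gene DCTN5, and it had 458 and 465 tags in C48, against 760 and 725 in DMSO (-0.68, limma adjusted p = 9.31e-22, and -0.35 as deposited). RAD52, a single-strand annealing protein, held opposite changes within 1 kb. Its peak near the start had 272 and 270 tags in C48, against 407 and 396 in DMSO, and a peak 874 bases downstream had 181 and 178 in C48, against 120 and 98.1 in DMSO. The sum was -0.17 with TMM (adjusted p = 0.0113) and 0.17 as deposited, and the TMM call was lost without either C48 library or DMSO replicate 1 (adjusted p from 0.0627 to 0.15). XRCC2, which helps to assemble the recombinase filament, showed the same arrangement, with log2 fold changes of -0.40 at the start and 0.55 at a peak 559 bases downstream, and its summed call (-0.25, but 0.09 as deposited) was lost without C48 replicate 2 (-0.20, adjusted p = 0.0863). XRCC3, a relative of XRCC2, had no peak of its own name, while the peak over its start, named for the divergent gene ZFYVE21, had 1000 and 1023 tags in C48, against 1723 and 1585 in DMSO (-0.71, adjusted p = 2.8e-28, and -0.37 as deposited).

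The Fanconi anemia genes gave the largest positive value of the list and 3 lower calls. FANCD2, which is ubiquitinated at crosslinks together with FANCI, had 23.4 and 29.0 tags in C48, against 14.1 and 10.7 in DMSO (log2 fold change 1.03, SE 0.20, limma adjusted p = 8.05e-07, and 1.35 as deposited). Its named peak is weak, lies 795 bases downstream and had been called by HOMER in none of the 4 libraries. The peak over the FANCD2 start, which covers the whole printed window, is named for the pseudogene CIDECP1. It was far stronger than the named peak and moved in the opposite direction, with 279 and 274 tags in C48, against 386 and 372 in DMSO (-0.45, SE 0.07, adjusted p = 5.14e-09, and -0.12 as deposited). FANCI had 172 and 164 tags in C48, against 205 and 237 in DMSO (-0.39, and -0.05 and not called as deposited). FANCA, of the core ligase complex, had 491 and 489 tags in C48, against 758 and 702 in DMSO, with no overlap (-0.57, SE 0.06, adjusted p = 1.15e-18, and -0.24 as deposited). FANCM, a translocase that recruits that complex, was also lower on both scales, at -0.57 with TMM and -0.23 as deposited.

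All 3 members of single-strand break and base excision repair were lower on both scales, against 63.3% of all tested genes with TMM and 41.2% as deposited. Among 19 other tested genes of this pathway, 15 were lower and 1 higher with TMM, at a median of -0.33. As deposited, 5 of these were lower and 7 higher, at a median of 0.009. PARP2 had 182 and 184 tags in C48, against 448 and 411 in DMSO, with no overlap (log2 fold change -1.23, SE 0.07, limma adjusted p = 6.61e-58, and -0.89 as deposited), the lowest of the list and at percentile 0.4 of all tested genes. PARP2 and PARP1 encode polymerases that build poly(ADP-ribose) at breaks. PARP1 had 134 and 150 tags within 1 kb in C48, against 300 and 238 in DMSO (-0.91, SE 0.08, adjusted p = 1.43e-26), but a second peak just beyond the 1 kb limit moved the other way, so that the sum within 3 kb was -0.10 with TMM (adjusted p = 0.203) and 0.24 as deposited. XRCC1, the scaffold on which these repair factors assemble, was at -0.61 with TMM and -0.28 as deposited.

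In nucleotide excision repair 3 of 4 members were lower. ERCC4 encodes XPF, the nuclease that cuts 5′ of the lesion in a complex with the product of ERCC1. ERCC4 had 121 and 140 tags in C48, against 221 and 214 in DMSO, with no overlap (log2 fold change -0.73, SE 0.09, limma adjusted p = 2.31e-16, and -0.40 as deposited). XPC, which recognizes the lesion, had 266 and 268 tags in C48, against 409 and 406 in DMSO, also with no overlap (-0.61, SE 0.07, adjusted p = 6.03e-17, and -0.27 as deposited). XPA, which verifies the lesion, was at -0.52 with TMM and -0.18 as deposited, both called. ERCC1 itself was not called, at 597 and 639 tags in C48 and 622 and 601 in DMSO (0.01, adjusted p = 0.845), and was called higher as deposited (0.35, adjusted p = 2.12e-09).

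The ERCC1 sum joined peaks at separate start sites that differed. At the strongest, chr19:45423582-45424477, there were 385 and 412 tags in C48 and 364 and 353 in DMSO (log2 fold change 0.15 with TMM and 0.49 as deposited, called higher with TMM). The peak at chr19:45450785-45451441, next to the RefSeq start used here, had 66.4 and 72.3 tags in C48, against 132 and 122 in DMSO (-0.86, and -0.53 as deposited). Summed around that RefSeq start alone, ERCC1 was lower in C48 (-0.32, limma adjusted p = 0.000139), with 0.02 as deposited.

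End joining and mismatch repair complete the list. PRKDC, the kinase DNA-PKcs, LIG4, the ligase of classical end joining, and POLQ, the polymerase of the microhomology-mediated route, were called lower with TMM at -0.37, -0.35 and -0.42, and none was called as deposited (-0.03, -0.02 and -0.08). POLQ had the smallest p of these, with 310 and 302 tags in C48, against 420 and 398 in DMSO (SE 0.07, limma adjusted p = 7.66e-09). The peaks named for LIG4 lie at another annotated start site than the RefSeq entry used here. That RefSeq start lies in a peak named for the divergent gene ABHD13, which had 184 and 178 tags in C48, against 316 and 329 in DMSO (-0.83, limma adjusted p = 2.4e-21, and -0.49 as deposited). MSH6, a subunit of the heterodimer that detects mispaired bases, had the highest mean DMSO level of the 33 members, with 795 and 846 tags in C48, against 1460 and 1274 in DMSO (-0.73, SE 0.06, adjusted p = 1.48e-32, and -0.40 as deposited).

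Because peaks over 8 of the 32 matched member starts carried another gene's name, members were also summed by coordinates, over every peak within 1 kb of the RefSeq start whatever its name. This reading was added after seeing the data, and a shared peak then counts for both genes of a divergent pair. Of 31 members tested in this way with TMM, 28 were called lower and 2 higher (RAD50 and CDKN1A). The remaining 1, PARP1, whose downstream peak then overlaps the window, was not called. Of 14112 genes, 66.2% were lower and 17% higher. The members' median was -0.52, against -0.40 for all genes. CHEK2 (-0.53, limma adjusted p = 4.06e-10), FANCD2 (-0.37, adjusted p = 3.67e-07) and ERCC1 changed direction relative to the peaks named for them. As deposited, the same sums gave -0.19 for CHEK2 and -0.03 for FANCD2, of which only CHEK2 was called. On that scale RAD50, CDKN1A, RAD52, ATR, ATRIP, CHEK1 and PARP1 were called higher. BRCA1, BRCA2, XRCC2, TP53BP1, MDM2, FANCD2, ERCC1 and POLQ were not called as deposited, and the other tested members were called lower. Shares of all genes as deposited, or by strength of the peak, were not taken for these sums.

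**Figure D2:**
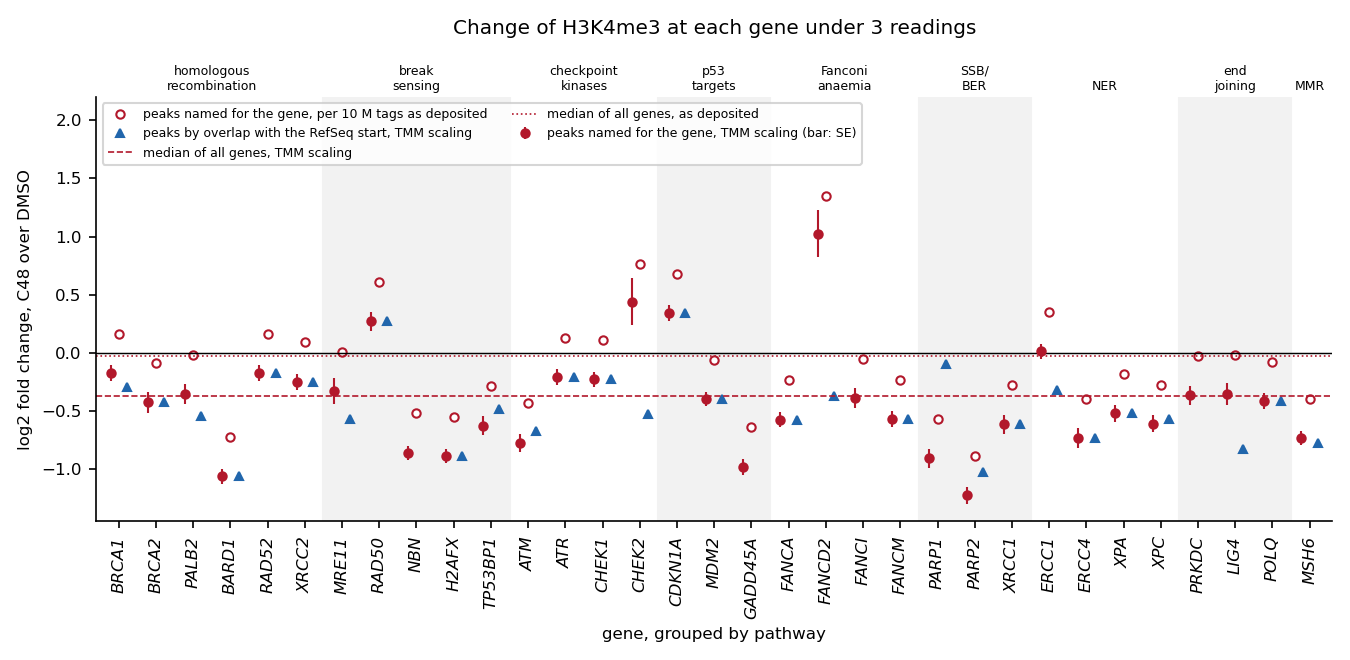
Log2 fold change of H3K4me3 (C48 over DMSO, y axis) for each tested member (x axis, by pathway), from peaks named for the gene with TMM scaling (filled circles, bars are SE) or as deposited (open circles), and from peaks by overlap with the RefSeq start (triangles, for members with an entry). Filled circles and triangles part most at FANCD2, CHEK2 and PARP1, and dashed and dotted lines mark the all-gene medians of -0.37 and -0.03.

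Among single peaks pooled over genes, the change differed with distance from the TSS. Peaks were not matched for strength between the distances. In the fit of single peaks, 36.3% of all 43319 peaks were called higher and 34.2% lower. Of 28 member peaks centered within 250 bases of the TSS, 22 were lower and 2 higher, against 64.2% lower and 16.5% higher of all peaks at that distance (median -0.41, against -0.42). Of 12 peaks over 250 and up to 500 bases away, 8 were lower and 2 higher, against 55.6% and 17.9% (-0.47, against -0.31). Of 15 peaks over 500 and up to 1000 bases away, 6 were lower and 5 higher, against 33.4% and 37% (-0.10, against 0.05). Of 10 peaks over 1000 and up to 2000 bases away, 1 was lower and 6 were higher, against 15.1% and 64.7% (0.78, against 0.63), and all 10 lay downstream of the start. As deposited, the members' medians in these zones were -0.07, -0.14, 0.24 and 1.11, against -0.08, 0.02, 0.38 and 0.96 for all peaks. A peak called in 1 group alone could enter, for members as for all peaks, which favors a change toward that group. Over 1000 bases away, the higher peaks of RAD50 and PARP1 were called in 2 C48 and 0 DMSO libraries. That of NBN was called in 1 and 0.

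**Figure D3:**
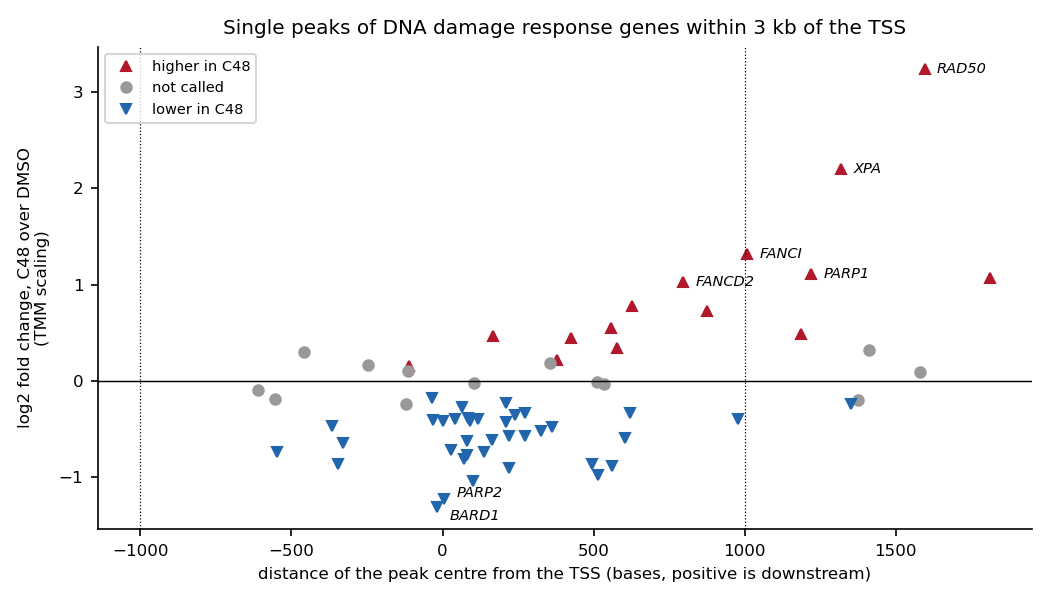
Log2 fold change (C48 over DMSO, TMM scaling, y axis) of each tested member peak by the distance of its center from the TSS (x axis, bases), with triangles up for peaks called higher, triangles down for lower and circles for not called. Peaks near the start lie mostly below 0, and those over 1000 bases downstream lie mostly above it, with RAD50 and XPA highest.

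To set the flanks against the start without any scaling between libraries, the signal at 1 to 3 kb was divided by the signal within 1 kb of the same gene and library. This ratio could be tested for 9 members, of which 8 were higher in C48 and 1 was not called, against 75.9% higher and 5.29% lower of 2705 genes. The members' median log2 change of the ratio was 1.70, against 0.96 for all genes. Flank peaks could enter through a call in C48 alone, for members as for all genes, which favors higher ratios. The RAD50 and PARP1 flanks were called in 2 C48 and 0 DMSO libraries, and that of NBN in 1 and 0. Those of XPA, BARD1 and FANCI were called in 0 of the 4 libraries.

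RAD50 had the largest ratio change among members. Its flank held 28.4% and 27.9% of the start-site signal in C48, against 3.39% and 2.88% in DMSO (log2 change 2.96, SE 0.11, limma adjusted p = 0.00027). The flanking peak, chr5:132558338-132558807, had 59.8 and 64.3 tags in C48, against 6.13 and 5.27 in DMSO, and HOMER had called it in 2 of 2 C48 libraries and 0 of 2 DMSO libraries. As its DMSO values are low, the size depends on the pseudocount, and with a pseudocount of 5 the RAD50 ratio change was 2.38. XPA followed, with 17.9% and 18.4% in C48, against 2.51% and 2.57% in DMSO (2.72, adjusted p = 0.00027).

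At PARP1 the flank outweighed the start in C48. It held 138% and 130% of the start-site signal in C48, against 32.9% and 32.8% in DMSO (log2 change 2.02, limma adjusted p = 0.00027), with 185 and 195 tags in C48, against 98.4 and 78.0 in DMSO. BARD1 (1.80), FANCI (1.70) and NBN (1.35) followed, each with a start that was lower with TMM and a flank that held more tags in C48. As deposited, the FANCI start was at -0.05 and not called. At GADD45A (0.74) and H2AFX (0.69) the ratio was higher, while the direction of the flank itself depended on the scale. The GADD45A flank had 174 and 190 tags in C48, against 211 and 218 in DMSO (-0.24, called lower with TMM, but 0.10 as deposited), and the H2AFX flank was at -0.19 (not called) with TMM and 0.14 as deposited. CDKN1A was the exception, at 63.7% and 61.1% in C48 and 70.7% and 78.4% in DMSO (-0.26, adjusted p = 0.0692).

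**Figure D4:**
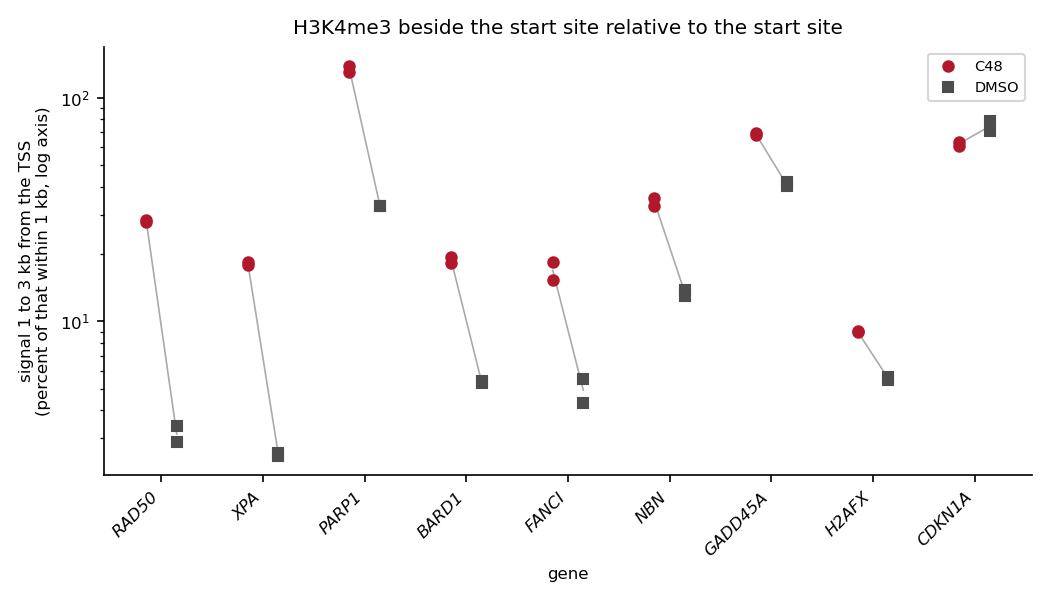
Signal at 1 to 3 kb from the TSS as a percent of the signal within 1 kb (y axis, log axis) for the 9 members with both (x axis), with each point a library and lines joining group means. C48 libraries lie above DMSO libraries at 8 genes, from 28.4% and 27.9% against 3.39% and 2.88% at RAD50 to 8.94% and 9.01% against 5.66% and 5.46% at H2AFX, and below them at CDKN1A.

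Other genes of the same pathways were read from a separate list of 119, of which 104 were tested. Of these, 80 were called lower (76.9%, against 63.3% of all genes), 6 higher (5.77%, against 17.9%) and 18 were not called, with a median of -0.40, against -0.37. As deposited the counts were 44 lower, 33 higher and 27 not called, with a median of -0.06, beside 41.2% lower and 35.8% higher of all genes. The largest higher calls of their pathways were EME1 in homologous recombination, ERCC8 in nucleotide excision repair, FANCE in the Fanconi anemia pathway and NTHL1 in base excision repair, at 1.11, 0.79, 0.19 and 0.27. All 6 higher calls were above 0 as deposited too, which follows from the scaling, since TMM lowers every log2 fold change. EME1, a subunit of a structure-specific nuclease, was the highest, with 89.9 and 86.9 tags in C48, against 41.4 and 39.3 in DMSO (log2 fold change 1.11, SE 0.13, limma adjusted p = 7.22e-18). Sums by coordinates were not read for this separate list. Start-site peaks that carry another gene's name, as at CHEK2 and FANCD2, may therefore be missed here. PLK3, a p53-induced kinase, was the lowest (-1.04, and -0.70 as deposited), followed by RAD23B, the partner of XPC (-1.01, and -0.67), and UIMC1, which targets a BRCA1 complex to ubiquitin at breaks (-0.97, and -0.63). All 8 other break sensing genes tested were lower with TMM, at a median of -0.78, and 6 of 8 as deposited. Their peaks were strong, with a median of 614 tags per kb against 299 for all genes, and in the strongest class of promoters 93.1% of all genes were lower with TMM.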

How the data were processed

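H3K4me3 CUT&Tag was analysed in HCC1428 cells given C48 or DMSO (2 libraries each, groups taken from sample titles). The authors aligned reads with Bowtie2 2.3.4.1 to hg38 and to the fly spike-in genome, called peaks per library with HOMER (version not given in the sources used here) and merged them over libraries that include other cell lines. The deposited signal is tags per peak and library, normalized by the authors to 10 M aligned tags without spike-in scaling. A peak called in any library is listed, so peaks of 1 group alone enter; 45692 were called in at least 1 of these 4. The authors' peak score and repeat table were not used.

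All values were whole multiples of 1 tag (100% within 0.1 tags), so whole tags were recovered. Peaks were summed per gene within 1 kb and tested with limma 3.58.1 (limma-trend) on log2(TMM-scaled value + 1) where the mean was at least 5. Fold changes on that scale understate changes of low values. The SE follows the trend of spread with level over all genes. It was 0.071 for CDKN1A and 0.07 for GADD45A, whose DMSO libraries had SDs of 42.3 and 3.94 tags. Benjamini-Hochberg adjustment ran over all genes or peaks, with calls at 0.05. The study scaled to spike-in tags, which were not used here; TMM takes the bulk of peaks as unchanged and moves C48 values down, where spike-in scaling moves them up. Alternatives were the deposited scale, DESeq2 1.42.0 size factors, a pseudocount of 5, no filter, the strongest peak, a 3 kb window, a replicate block, each library left out, and count tests on recovered tags (edgeR 4.0.16 quasi-likelihood, calling 28 members lower and 4 higher, and the DESeq2 Wald test). Scripts were tested on simulated data.

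Members and gene lists were chosen with earlier results of these data known. In each pathway the text gives in full the members with the smallest p and those moving against the rest, plus ERCC4 and H2AFX; genes outside the list were named as the largest changes of their pathway. NBN, GADD45A, FANCI and PRKDC were not matched to a promoter sequence. R 4.3.3 and Python 3.11.15 were used.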

Additional observations from a re-analysis of the deposited data

How the results depend on the processing

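Scaling moved the most. As deposited per 10 M tags, 5251 genes were called higher and 6047 lower, and 9 members higher and 15 lower, with medians of -0.078 for members and -0.031 for all genes; single peaks gave 23910 higher and 9130 lower. On that scale BRCA1 (0.17), RAD52 (0.17), XRCC2 (0.089), MRE11 (0.006), ATR (0.13) and CHEK1 (0.11) changed sign. DESeq2 size factors called 2 members higher, with medians of -0.57 and -0.52 and ERCC1 at -0.14, and the DESeq2 Wald test called 1736 genes and 2 members higher, with medians of -0.57 and -0.53 and ERCC1 at -0.14. The strongest peak alone gave -0.021 for RAD50. Peaks by overlap with the RefSeq start, chosen after seeing the data, gave -0.53 for CHEK2, -0.37 for FANCD2 and -0.32 for ERCC1. The cause was not tested beyond the peaks that each setting adds or drops by construction. Leaving out 1 library gave 2 to 4 members called higher and ERCC1 at -0.036 to 0.063. A pseudocount of 5, no filter and the edgeR test changed no member's call. Differences between replicates 1 and 2 were not shared by the groups (correlation over genes -0.04). Whether libraries of the same number were handled together is not given. The replicate block gave 28 members lower and 4 higher, with no call changed. With 2 libraries per group, differences of weak peaks such as those named for CHEK2 and MDC1 are the least certain.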
